A study of Mus musculus with 4 samples.

Results

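The genes described here are those whose expression differed between a lymph node line and its primary line in each of 2 pairs of mouse oral cancer cell lines, set side by side. One pair is AOC3 with AOC3-LN and the other is AOC11 with AOC11-LN. A gene was included when it was protein-coding, reached at least 1 FPKM in any line and had a transcript of 200 bases or longer, which left 11360 of the 34685 gene identifiers in the table. FPKM is the number of sequenced fragments of a gene, scaled to transcript length and to the size of the library. The difference within a pair is log2(FPKM + 1) of the lymph node line minus the same value of the primary line, so a positive value means a higher level in the lymph node line. A difference above 1 or below -1, a 2-fold step in FPKM + 1, counted as past the threshold. Where 4 values follow one another without line names, they belong to AOC3, AOC3-LN, AOC11 and AOC11-LN, in that order.

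All lines came from male C57BL/6 mice whose buccal mucosa was treated with the carcinogen 7,12-dimethylbenzanthracene. AOC3 and AOC11 were grown from oral tumors, and AOC3-LN and AOC11-LN from the lymph node metastases of the same animals. Cells were passaged under the skin of C57BL/6 mice, depleted of tumor-associated fibroblasts and cultured, and RNA of each line was sequenced as 1 library. Each pair therefore stands for 1 mouse, and a difference within a pair has no replicate check.

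When carcinoma cells settle in a lymph node they leave the epithelium and its stroma and meet a tissue full of immune cells. Epithelial tumor cells themselves make chemokines and colony-stimulating factors that draw and sustain neutrophils and macrophages, and many of these genes are targets of the transcription factor NF-kB. Interferon-stimulated genes form another program, switched on through interferon receptors and STAT proteins, that holds antiviral effectors and helps display antigens on class I molecules. Prostaglandin E2, made by cyclooxygenase and prostaglandin E synthase, adds a lipid signal that acts on neighboring cells.

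The table gives no read counts. Low FPKM values of genes with a single transcript lay within 0.1 of whole multiples of a common step in 70.7% to 73.3% of cases, against 20% by chance. From the size of that step, AOC3-LN was the shallowest library at about 28300000 fragments, and AOC3 (33600000), AOC11 (33800000) and AOC11-LN (32600000) were alike. On a transcript of 2000 bases, 1 FPKM then corresponds to between 52.1 fragments in AOC3-LN and 61.8 in AOC3. Of the 11360 genes, 22 were listed at 0 in AOC3 against 47 in AOC3-LN, and 21 in AOC11 against 12 in AOC11-LN.

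The lines were epithelial by their markers. All 9 epithelial markers passed the filter, 8 of them with 1 FPKM or more in all lines, and Krt18 was the most abundant. Their summed level was 3733 FPKM in AOC3 against 3783 in AOC3-LN, and 3243 in AOC11 against 3471 in AOC11-LN. Krt5, at 499, 275, 4.99 and 17.0 FPKM, and Trp63, at 1.69, 2.10, 0.0848 and 0.841, were lower in the AOC11 pair. Krt14, at 166, 150, 257 and 259 FPKM, was higher in it. Of 10 fibroblast markers, Acta2 and Postn passed, and the list summed to 0.35 FPKM in AOC3 against 0.331 in AOC3-LN, and 7.06 in AOC11 against 11.7 in AOC11-LN. Acta2 was the most abundant of them in the AOC11 pair and Pdgfra, at 0.129 and 0.232 FPKM, in the AOC3 pair. Ccl19, Ccl21a, Cxcl13 and Tnfsf11, 4 of 5 markers of lymph node stroma, were listed at 0 in every line, and the fifth, Madcam1, stayed under 0.04 FPKM. The T cell genes Cd3e, Cd4 and Cd8a were also listed at 0 in every line, and the whole T cell list of 8 genes summed to between 1.59 FPKM in AOC3-LN and 2.95 in AOC11-LN, most of it from Trac. The 5 B cell markers summed to at most 0.533 FPKM, in AOC3, with Cd79a the most abundant. Among 9 pan-leukocyte and myeloid markers the macrophage gene Adgre1 was listed at 0 throughout and Ptprc stayed at or below 0.064 FPKM. That list summed to 22.7 FPKM in AOC3 against 19.7 in AOC3-LN, and 36.5 in AOC11 against 18.1 in AOC11-LN, mostly from Cd68 and Cd14 and, in AOC11 with 20.8 FPKM, from Csf1r. The 7 endothelial and lymphatic markers summed to 13.3, 3.24, 2.88 and 1.3 FPKM in the same order of lines, with Flt4, at 12.9, 2.88, 2.61 and 0.883 FPKM, the most abundant. RNA was taken from whole cultures, so fewer cells of a type and less RNA per cell cannot be told apart.

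In the AOC3 pair, 120 genes were past the threshold on the higher side (1.06% of all genes) and 392 on the lower side (3.45%). In the AOC11 pair the balance was the other way, with 540 genes higher in the lymph node line (4.75%) and 209 lower (1.84%). Genes higher in the lymph node line thus made up 23.4% of those past the threshold in the AOC3 pair and 72.1% in the AOC11 pair, or 31.9% and 61.4% after quantile normalization. The median difference over all genes was -0.05 in the AOC3 pair and 0.01 in the AOC11 pair.

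In both pairs at once, 133 genes were past the threshold, 32 in the same direction and 101 apart. Of the genes that moved together, 8 were higher in both lymph node lines and 24 were lower in both. Of the genes that moved apart, 14 were higher in AOC3-LN and lower in AOC11-LN, and 87 were lower in AOC3-LN and higher in AOC11-LN. Each share that follows stands against the share of all genes past the threshold on the matching side of the other pair. The group of 87 was 22.2% of the 392 genes lower in AOC3-LN (against 4.75%). It was 16.1% of the 540 genes higher in AOC11-LN (against 3.45%). The 24 genes lower in both were 6.12% of those lower in AOC3-LN (against 1.84%) and 11.5% of those lower in AOC11-LN (against 3.45%). The 8 genes higher in both were 6.67% and 1.48% of the genes higher in the respective lymph node lines, against 4.75% and 1.06%. The 14 genes were 11.7% of those higher in AOC3-LN (against 1.84%) and 6.70% of those lower in AOC11-LN (against 1.06%). After quantile normalization 11 genes were higher in both and 21 lower in both. A further 19 were higher in AOC3-LN and lower in AOC11-LN, and 68 the reverse. In that order, 8, 18, 14 and 68 of them were shared with the groups above. With a pseudocount of 0.1 in place of 1 there were 45, 57, 33 and 286 genes in the same order, because it lets genes near 0 FPKM pass.

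**Figure D1:**
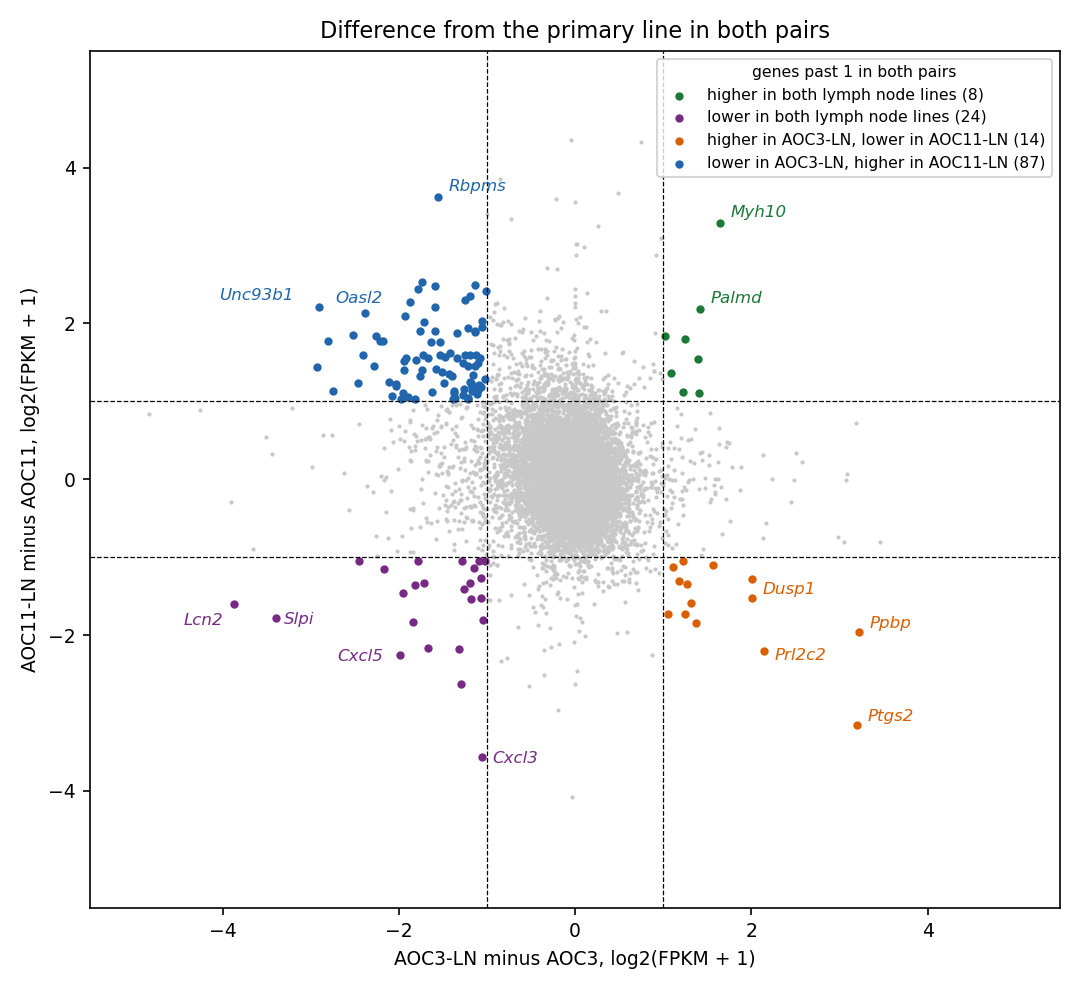
Each point is 1 of 11360 genes, with the difference in log2(FPKM + 1) between AOC3-LN and AOC3 on the horizontal axis and between AOC11-LN and AOC11 on the vertical axis; dashed lines mark 1 and -1, and 1 gene, Cldn3, lies beyond the axes. The upper left corner, lower in AOC3-LN and higher in AOC11-LN, holds 87 genes, and the other corners hold 8, 24 and 14.

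Genes past the threshold in 1 pair were also followed in the other pair, whatever their difference there. Among the 392 genes lower in AOC3-LN, 65.8% had a positive difference in the AOC11 pair, against 51.0% of all genes, and their median there was 0.33. Among the 540 genes higher in AOC11-LN, 74.1% had a negative difference in the AOC3 pair, against 56.5% of all genes, with a median of -0.31. These shares include the 87 genes. Without genes past the threshold in both pairs, 281 genes lower in AOC3-LN had a median of 0.17 in the AOC11 pair, and 60.9% were positive, against 49.2% of the 10232 genes past it in neither pair. Of 445 genes higher in AOC11-LN, 70.3% were negative in the AOC3 pair, against 55.0%, with a median of -0.22. The 120 genes higher in AOC3-LN and the 209 lower in AOC11-LN had medians near 0 in the other pair, at -0.04 and -0.01. Across all 11360 genes the differences of both pairs had a Pearson correlation of -0.17 and a Spearman correlation of -0.14, and 45.6% of genes had the same sign. Genes are not independent replicates, and these values describe the 4 libraries only. Among 2473 genes that reached 50 FPKM in any line the Pearson correlation was -0.096, and among 3798 genes that stayed under 10 FPKM it was -0.19.

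The 24 genes lower in both lymph node lines include chemokines that draw neutrophils. Cxcl5 (ENSMUSG00000029371.7, chr5:90759360-90761624 of mm10) had 27.4 FPKM in AOC3 against 6.15 in AOC3-LN, and 180.4 in AOC11 against 37.1 in AOC11-LN. Cxcl1 was expressed more strongly, at 313, 125, 357 and 77.8 FPKM in the same order. Cxcl3 had 3.93, 1.37, 31.9 and 1.78 FPKM. In each case both primary lines were above both lymph node lines, except that the Cxcl5 level of AOC11-LN was above that of AOC3. The log2 differences in the AOC3 and AOC11 pairs were -1.99 and -2.25 for Cxcl5, -1.32 and -2.18 for Cxcl1, and -1.06 and -3.56 for Cxcl3. These 3 genes lie within 250000 bases of one another on chromosome 5 and are similar in sequence, so reads could be shared among them. Cxcl3 was past the threshold in both pairs without quantile normalization but not with it. Of the 7 genes on the list of neutrophil-attracting CXC chemokines, 5 passed the filter, and their median differences were -1.06 and -2.18, against -0.05 and 0.01 over all genes. Cxcl2 was at 0.815, 0.814, 4.32 and 2.97 FPKM and Ppbp moved apart, as described further on. With Ppbp included, the summed level of the 5 genes was not lower in AOC3-LN. It was 371 FPKM in AOC3 against 389 in AOC3-LN, and 677 in AOC11 against 145 in AOC11-LN.

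Ccl20, the ligand of Ccr6 that draws dendritic cells and lymphocytes to epithelium, had 8.26 FPKM in AOC3 against 1.92 in AOC3-LN, and 7.03 in AOC11 against 0.79 in AOC11-LN. It was low in both lymph node lines, with differences of -1.66 and -2.17. Among the 12 other chemokines that passed the filter it was the only gene lower in both lines past the threshold. Ccl27a, a skin-type chemokine that attracts T cells, was the only one higher in both, and Cx3cl1 and Cxcl14 moved apart. The macrophage-attracting Ccl2 fell outside the joint groups, with 17.7, 0.483, 6.50 and 3.04 FPKM and differences of -3.66 and -0.89.

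Csf1, the growth factor that sustains macrophages, was among the most abundant genes of the group, with 174 FPKM in AOC3 against 48.7 in AOC3-LN, and 211 in AOC11 against 81.5 in AOC11-LN. Both primary lines were above both lymph node lines, and the differences were -1.82 and -1.36. Tnf, an inflammatory cytokine, was low everywhere, at 2.23, 0.324, 1.97 and 0.437 FPKM, and lower in the lymph node lines by the same measure, with differences of -1.29 and -1.05. Of the 18 colony-stimulating factors, interleukins and TNF family ligands that passed, 2 were higher and 3 lower past the threshold in AOC3-LN, against 1.06% and 3.45% of all genes. In AOC11-LN 3 were higher and 7 lower past it, against 4.75% and 1.84%. Csf3, which drives neutrophil production, had 109 FPKM in AOC3 against 75.7 in AOC3-LN, and 170.4 in AOC11 against 26.4 in AOC11-LN, so that its difference was past the threshold in the AOC11 pair alone (-0.52 and -2.65). The median differences of the list were -0.17 and -0.74, and 0.10 and -1.14 among the 12 genes with a mean of 5 FPKM or more, so that the sign in the AOC3 pair depended on the weakly expressed genes.

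Lcn2, which binds bacterial siderophores, had 65.1, 3.50, 33.2 and 10.3 FPKM, and Slpi, an inhibitor of neutrophil elastase, had 43.1, 3.18, 44.3 and 12.2 FPKM. Both are products of inflamed epithelium, and both were high in the primary lines and low in the lymph node lines. Slpi differed by -3.40 in the AOC3 pair and -1.78 in the AOC11 pair. The list of NF-kB pathway regulators and targets, which holds Lcn2, kept 25 of 26 genes. Of these, 12 were lower past the threshold in AOC3-LN, against 3.45% of all genes, and 1, Lcn2, in AOC11-LN, against 1.84%. The medians of the list were -0.86 and -0.19. Negative differences in both pairs were seen for 16 of the 25 genes (64.0%, against 25.6% of all genes). Nfkbia, the inhibitor that NF-kB itself induces, had 96.9 FPKM in AOC3 against 34.5 in AOC3-LN, and 93.8 in AOC11 against 65.5 in AOC11-LN, and differences of -1.46 and -0.51.

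Clotting was represented in the group as well. F3, the tissue factor that starts coagulation, had 26.3 FPKM in AOC3 against 7.34 in AOC3-LN, and 29.99 in AOC11 against 11.4 in AOC11-LN. Each lymph node line was lower than its own primary line, with differences of -1.71 and -1.33. Plau, which encodes urokinase, was abundant in all lines, at 1266, 737, 988 and 612 FPKM, with differences of -0.78 and -0.69 that did not reach the threshold. Other members of the list of 15 plasminogen activation and coagulation genes moved differently. Serpinb2 had 19.7 FPKM in AOC3 against 163 in AOC3-LN, and 8.47 in AOC11 against 4.65 in AOC11-LN, high in AOC3-LN alone. The medians of the list were -0.23 and -0.40.

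F3 also stands on the list of targets and partners of YAP and TEAD, the transcription factors that respond to cell shape and stiffness. Of its 18 genes, 11 had negative differences in both pairs (61.1%, against 25.6% of all genes), and the medians were -0.39 and -0.48. Ccn1, a matrix-associated signaling protein, had 524 FPKM in AOC3 against 307 in AOC3-LN, and 909.7 in AOC11 against 184 in AOC11-LN. Ankrd1 had 39.8, 21.8, 51.8 and 9.53 FPKM. Both were lower in each lymph node line than in its primary line, past the threshold only in the AOC11 pair (-2.30 and -2.33). Vgll3, a cofactor that binds TEAD proteins, was lower in both, from 3.11 to 0.676 FPKM in the AOC3 pair and from 19.3 to 2.28 in the AOC11 pair. Tead2 moved the other way in AOC11-LN, with 4.05, 1.30, 19.1 and 54.3 FPKM.

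Other secreted factors and enzymes were also in the group. Pdgfb, which recruits pericytes, had 94.9 FPKM in AOC3 against 26.8 in AOC3-LN, and 104 in AOC11 against 49.5 in AOC11-LN, and Pgf, a relative of the vascular endothelial growth factors, had 5.54, 1.73, 16.3 and 5.54 FPKM. Lox, which crosslinks collagen, had 1.39 and 1.66 FPKM in the primary lines and 0.0409 and 0.0537 in the lymph node lines. Slc16a3, a lactate exporter, had 19.7, 2.78, 4.44 and 1.63 FPKM. Cryab, a small heat shock protein, and Krt7, a keratin of simple epithelium, were lower in both lymph node lines from very different starting levels. Cryab had 4.00 and 1.21 FPKM in the AOC3 pair and 101 and 34.3 in the AOC11 pair. Krt7 had 13.1 and 5.91 FPKM in the AOC3 pair and 635 and 306 in the AOC11 pair, and was the gene nearest to the threshold on the inside, with differences of -1.02 and -1.05. Further genes lower in both were Ppp1r12b, Glrx, Angptl4, Cldn1, Palm3, Siglecg and 2310007B03Rik. After quantile normalization Krt7, Cldn1, Palm3, Angptl4 and Siglecg, with Cxcl3, were no longer past the threshold in both pairs. Over the 24 genes the median level was 14.3 FPKM in AOC3 against 2.98 in AOC3-LN, and 30.9 in AOC11 against 9.45 in AOC11-LN.

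Fewer genes were higher in both lymph node lines. Myh10 (ENSMUSG00000020900.15, chr11:68691559-68816632), a nonmuscle myosin heavy chain that powers contraction and migration, had 3.06 FPKM in AOC3 against 11.7 in AOC3-LN, and 0.711 in AOC11 against 15.8 in AOC11-LN. Palmd, which encodes palmdelphin, had 3.61, 11.4, 3.76 and 20.7 FPKM. Scrn1, which encodes secernin, had 4.61, 13.8, 4.33 and 14.6 FPKM. For these genes both lymph node lines were above both primary lines, with differences of 1.64 and 3.29 for Myh10, 1.42 and 2.19 for Palmd, and 1.40 and 1.55 for Scrn1. Ccl27a had 4.23 FPKM in AOC3 against 11.3 in AOC3-LN, and 4.71 in AOC11 against 11.4 in AOC11-LN, so that the lines of each site were close to each other. Bcat1, an aminotransferase that breaks down branched-chain amino acids, had 5.19, 13.7, 0.365 and 3.77 FPKM. Pold4, a small subunit of DNA polymerase delta, was the most abundant of the group, with 46.4, 124, 31.6 and 69.5 FPKM. A share of 24.6% of its exon bases overlaps a neighboring gene, so its level is less certain. Rnf208, a RING finger gene, had 7.86, 17.9, 0.796 and 3.61 FPKM. Sp7, a transcription factor of bone-forming cells, was listed at 0 in both primary lines and had 1.03 FPKM in AOC3-LN and 2.56 in AOC11-LN. It lies nearest to the threshold on the inside, at 1.02 in the AOC3 pair, and Dpysl3, at 0.99 and 1.29, lies nearest on the outside. All 8 genes were also in this pattern after quantile normalization.

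A shift shared by both pairs was tested across the 4 libraries. limma's moderated test compared the lymph node lines with the primary lines, with the pair as a replicate block. At an adjusted p threshold of 0.05 it called 0 of 11360 genes. At an unadjusted p under 0.05 there were 367, of which 131 were higher and 236 lower in the lymph node lines. The lowest adjusted p was 0.0828, for Cxcl5, with a mean difference of -2.12 (standard error 0.24, lower in both pairs). Csf1, Slpi and Cxcl1 were among the next, each with an adjusted p of 0.113, lower in both pairs, and with mean differences of -1.59, -2.59 and -1.75. Myh10 had the lowest p among genes higher in both, with a mean difference of 2.47 (standard error 0.42) and an adjusted p of 0.265. When only genes that reached 5 FPKM in any line were fitted, 9314 in number, 6 genes were called, all lower in the lymph node lines. They include Cxcl5 (adjusted p 0.0205), Slpi (0.033), and Csf1, Cxcl1 and 2310007B03Rik (0.047 each), every gene lower in both pairs. Over the alternatives with all 4 lines, the lowest adjusted p ranged from 0.0205 with that filter to 1 without a filter. The opposite patterns have no such test, because each combination of pair and site is 1 library.

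The 14 genes higher in AOC3-LN and lower in AOC11-LN were led by Ptgs2 (ENSMUSG00000032487.8, chr1:150100031-150108227), the inducible cyclooxygenase that makes the precursor of prostaglandins. It had 4.91 FPKM in AOC3 against 53.2 in AOC3-LN, and 52.1 in AOC11 against 4.95 in AOC11-LN. The level was thus high in AOC3-LN and AOC11 and low in the other lines, and the differences of 3.20 and -3.16 were of nearly the same size with opposite signs. Ppbp, a platelet chemokine that attracts neutrophils, had 26.4, 256, 103 and 25.7 FPKM. Again AOC3-LN and AOC11 were the high lines, with differences of 3.23 and -1.96, and Ppbp was the member of its chemokine list that went against Cxcl1, Cxcl3 and Cxcl5 in the AOC3 pair. Csf2, a growth factor for granulocytes and macrophages, had 6.48, 18.4, 7.26 and 1.30 FPKM. It was highest in AOC3-LN and lowest in AOC11-LN, while the primary lines were close to each other.

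Dusp1, a phosphatase that switches off MAP kinases and is induced within minutes of stimulation, had 8.13 FPKM in AOC3 against 35.8 in AOC3-LN, and 6.75 in AOC11 against 1.70 in AOC11-LN. It was high in AOC3-LN alone, with differences of 2.01 and -1.52. A part of the genes of ERK signaling leaned the same way, and Ptgs2, which is on their list, was the only one past the threshold in both pairs. On the list of ERK pathway output genes, 15 of 28 were higher in AOC3-LN and lower in AOC11-LN than in the primary line, whatever the size (53.6%, against 23.4% of all genes), and the medians were 0.45 and -0.35. The list had 5 genes higher and 1 lower past the threshold in AOC3-LN, against 1.06% and 3.45% of all genes. In AOC11-LN it had 0 higher and 4 lower, against 4.75% and 1.84%. Hbegf, a ligand of the EGF receptor, had 94.8 FPKM in AOC3 against 156 in AOC3-LN, and 56.5 in AOC11 against 20.4 in AOC11-LN (0.71 and -1.43). Areg, another ligand of that receptor, had 44.6, 93.4, 32.1 and 19.2 FPKM (1.05 and -0.71). Both ligands were highest in AOC3-LN and lowest in AOC11-LN.

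The EGF family list as a whole had medians of 0.60 and -0.22 over 14 genes (0.69 and -0.48 after quantile normalization). Of these, 2 were higher past the threshold in AOC3-LN and 3 lower in AOC11-LN, against 1.06% and 1.84% of all genes. The list overlaps the ERK list, with Hbegf and Areg on both. The receptor gene Egfr had 15.6, 11.3, 16.6 and 5.64 FPKM. It was lower in AOC11-LN by a step like that of Hbegf (-1.40), but in the AOC3 pair, at -0.42, its sign was opposite to that of Hbegf and Areg. Immediate early transcription factors, which include the AP-1 proteins Fos and Jun, had medians of 0.26 and -0.41 over 24 genes. Members such as Fosl1 are on the ERK list too. Fosl1 had 39.1 FPKM in AOC3 against 84.1 in AOC3-LN, and 15.98 in AOC11 against 19.3 in AOC11-LN, and Klf6 had 100.0, 119.5, 106 and 42.0. Each of these was past the threshold in 1 pair only, Fosl1 in the AOC3 pair at 1.09 and Klf6 in the AOC11 pair at -1.31.

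Prl2c2 and Prl2c3, placental relatives of prolactin that are also called proliferins, lie within 250000 bases of each other on chromosome 13. Prl2c2 had 0.857 FPKM in AOC3 against 7.22 in AOC3-LN, and 9.88 in AOC11 against 1.36 in AOC11-LN, and Prl2c3 had 0.49, 2.53, 6.39 and 1.23 FPKM. Both were high in AOC3-LN and AOC11 and low in the other lines. Their sequences are nearly alike, so fragments of one may have been counted for the other. Klk10, a kallikrein-related peptidase of stratified epithelium, had 8.63, 27.6, 3.11 and 0.913 FPKM. All 4 kallikreins that passed the filter, of 12 on the list, were higher past the threshold in AOC3-LN, against 1.06% of all genes. Klk10 was the only one lower past it in AOC11-LN, against 1.84%. L1cam, an adhesion molecule of neurons, lies just inside the threshold, with 1.23 and -1.05, and Gsg1 just outside, with 1.42 and -0.98. Further genes of the pattern were Ang2, Flnc, Inpp4b, Lmo7 and Spire1. All 14 were in this pattern after quantile normalization too. The rule favors a low AOC3 and a high AOC11 here. Of the 14 genes, 10 were higher in AOC11 than in AOC3, and all 14 were higher in AOC3-LN than in AOC11-LN.

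**Figure D2:**
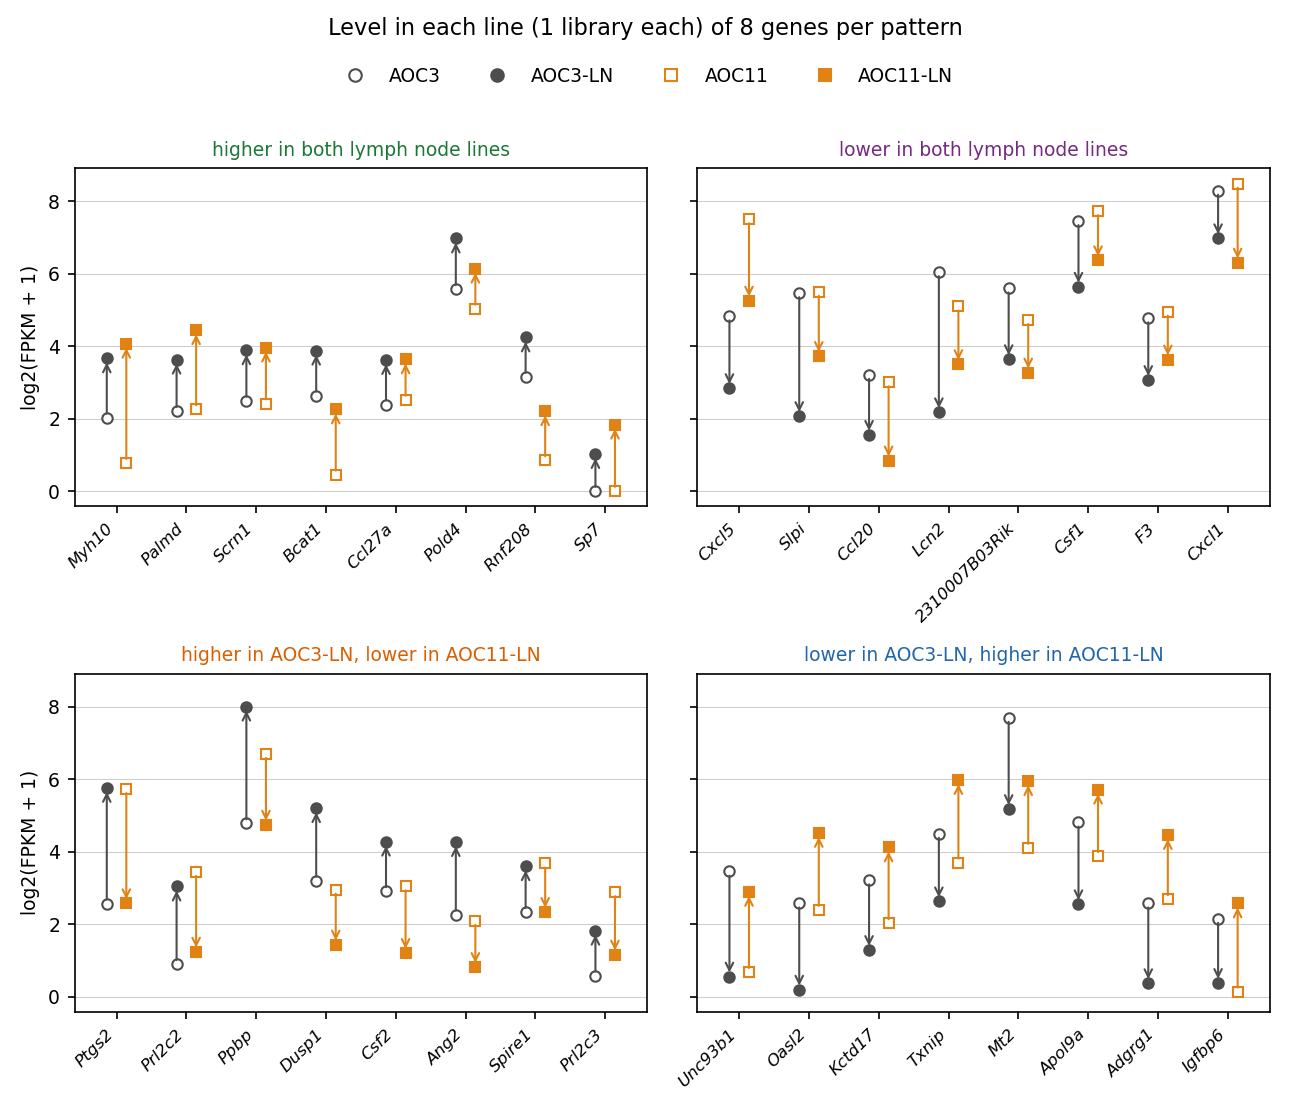
Levels in log2(FPKM + 1) of 8 genes in each pattern, among those with the largest smaller difference of the pairs among genes in the same pattern after quantile normalization; open symbols are primary lines, filled symbols lymph node lines, circles the AOC3 pair and squares the AOC11 pair, 1 library each. Arrows run from the primary to the lymph node line: Ptgs2 goes from 4.91 to 53.2 FPKM in the AOC3 pair and from 52.1 to 4.95 in the AOC11 pair.

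The largest group, 87 genes lower in AOC3-LN and higher in AOC11-LN, held 6 of the 51 interferon-stimulated genes that passed the filter, against 0.766% of all genes. Isg15 (ENSMUSG00000035692.6, chr4:156199424-156200818), a ubiquitin-like modifier, had 4.40 FPKM in AOC3 against 0.411 in AOC3-LN, and 4.87 in AOC11 against 14.5 in AOC11-LN. Oasl2, a relative of the enzymes that sense double-stranded RNA, had 4.95, 0.138, 4.24 and 21.9 FPKM. Gbp2, a GTPase that attacks the compartments of intracellular microbes, had 3.79, 0.508, 4.14 and 14.2 FPKM. In all of these the primary lines were close to each other, AOC3-LN was far below them and AOC11-LN far above. Ifitm3, a membrane protein that blocks viral fusion, was the most abundant, with 65.4, 22.2, 109.7 and 287 FPKM. Xaf1, a partner of the apoptosis inhibitor XIAP, had 3.63, 0.833, 3.86 and 13.3 FPKM, and Ifi204, a DNA-binding protein of the AIM2 family, had 4.46, 1.39, 3.26 and 11.9 FPKM. The log2 differences were -1.94 and 1.40 for Isg15, -2.39 and 2.13 for Oasl2, -1.67 and 1.56 for Gbp2, and -1.52 and 1.38 for Ifitm3.

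Of the 57 interferon-stimulated genes on the list, 51 passed the filter. In the AOC3 pair 16 were lower past the threshold and 0 higher, against 3.45% and 1.06% of all genes. In the AOC11 pair 29 were higher and 0 lower, against 4.75% and 1.84%. The median differences were -0.68 and 1.16, after quantile normalization -0.60 and 0.90, and with a pseudocount of 0.1 -1.62 and 1.47, against -0.05 and 0.01 over all genes. Negative differences in the AOC3 pair together with positive differences in the AOC11 pair were found for 47 of the 51 genes (92.2%, against 30.9% of all genes). Trim25, Helz2 and Eif2ak2 were negative in both pairs, and Samd9l was listed at 0 in both lines of the AOC3 pair. The filter matters here: 15 of the 51 genes reached 1 FPKM in AOC11-LN alone, so that the filter itself favors a positive difference in that pair. Among the 20 genes of the list with a mean of 5 FPKM or more over the lines, the medians were -1.27 and 0.92. Past the threshold in both pairs were 6 genes, Isg15, Ifitm3, Oasl2, Xaf1, Gbp2 and Ifi204. Summed over the 51 genes, the level was 383 FPKM in AOC3 against 176 in AOC3-LN, and 527 in AOC11 against 1136 in AOC11-LN.

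Upstream of these genes stand the interferon receptors, the STAT proteins and the interferon regulatory factors. All 21 genes on that list passed the filter, and 0 were past the threshold in both pairs. Past it in 1 pair, 4 were lower in AOC3-LN and 2 higher in AOC11-LN, against 3.45% and 4.75% of all genes. Irf1, which is induced by interferon gamma, had 68.1 FPKM in AOC3 against 21.1 in AOC3-LN, and 66.9 in AOC11 against 96.5 in AOC11-LN (-1.65 and 0.52). Irf7, which amplifies the type I response, had 1.27, 0.288, 1.19 and 3.54 FPKM (-0.82 and 1.05). Both were lowest in AOC3-LN and highest in AOC11-LN. The medians of the list, -0.41 and 0.06, were smaller than those of the interferon-stimulated genes.

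Of 24 genes of class I antigen presentation, 22 passed, with medians of -0.78 and 0.36 (-0.81 and 0.21 among the 17 genes with a mean of 5 FPKM or more), and 19 had a negative difference in the AOC3 pair and a positive one in the AOC11 pair (86.4%, against 30.9% of all genes). Most did not reach the threshold: 7 were lower past it in AOC3-LN and 4 higher in AOC11-LN, against 3.45% and 4.75% of all genes. Psmb8, a catalytic subunit of the immunoproteasome, was the only one past the threshold in both, with 1.84 FPKM in AOC3 against 0.0516 in AOC3-LN, and 9.07 in AOC11 against 24.7 in AOC11-LN. B2m, the light chain of class I molecules, had 459, 272, 452 and 851 FPKM, with differences of -0.75 and 0.91. It was nearly equal in the primary lines, lower in AOC3-LN and higher in AOC11-LN. The heavy chains H2-K1 and H2-D1 were nearly level, with differences between -0.14 and 0.19, and Calr and Canx, chaperones of the same pathway, had the opposite signs, at 0.05 and -0.13 and at 0.03 and -0.33.

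Chemokines and cytokines of this direction were Cx3cl1, Cxcl14 and Il18. Cx3cl1, a membrane-bound chemokine for monocytes and natural killer cells, had 21.02 FPKM in AOC3 against 6.93 in AOC3-LN, and 10.7 in AOC11 against 33.6 in AOC11-LN. Cxcl14, a chemokine of healthy epithelium, had 3.04, 0.401, 0.467 and 3.41 FPKM. Il18, a cytokine that inflammasomes activate, had 1.35, 0.0646, 0.307 and 3.89 FPKM. Each was low in AOC3-LN, while AOC11 lay below AOC3, so the primary lines differed as well. Aim2, a sensor of cytosolic DNA that forms an inflammasome, had 10.3, 0.616, 0.197 and 3.10 FPKM. Unc93b1, which carries nucleic acid-sensing Toll-like receptors to endosomes, had 9.94, 0.463, 0.595 and 6.42 FPKM and the largest smaller difference of the group (-2.90 and 2.22).

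Genes of metal binding and detoxification were also in the group. The metallothioneins Mt1 and Mt2 bind zinc and copper. Mt2 had 206 FPKM in AOC3 against 35.0 in AOC3-LN, and 16.1 in AOC11 against 60.7 in AOC11-LN, and Mt1 had 224, 74.7, 27.1 and 73.8 FPKM. Both were highest in AOC3 and lowest in AOC11, and the lymph node lines lay between, so that Mt1 was at almost the same level in AOC3-LN and AOC11-LN. The genes lie side by side on chromosome 8 and are alike in sequence. On the list of Nrf2 and glutathione genes, 34 of 37 passed, and 7 were lower past the threshold in AOC3-LN, against 3.45% of all genes. In AOC11-LN 9 were higher and 1 lower, against 4.75% and 1.84%. Of the 34 genes, 20 combined a negative difference in the AOC3 pair with a positive one in the AOC11 pair (58.8%, against 30.9% of all genes). A further 8 had the opposite signs (23.5%, against 23.4% of all genes). Among these were Hmox1 (0.43 and -1.20), Txnrd1 (0.13 and -0.82), Gclm (0.01 and -0.60) and G6pdx (0.32 and -0.22). Gstk1, a glutathione transferase, had 19.4 FPKM in AOC3 against 5.04 in AOC3-LN, and 8.85 in AOC11 against 35.8 in AOC11-LN. Gstt3, another transferase, and Ephx1, an epoxide hydrolase, were the other genes of that list past the threshold in both pairs. The medians of the list were -0.39 and 0.31, and -0.33 and 0.10 among the 22 genes with a mean of 5 FPKM or more. Aldh2, the mitochondrial aldehyde dehydrogenase, stood out by its level in AOC11-LN, with 37.4, 15.2, 42.8 and 215 FPKM.

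Prostaglandin genes split between the opposite patterns. Ptges, the inducible prostaglandin E synthase that works downstream of cyclooxygenase, had 25.2 FPKM in AOC3 against 6.89 in AOC3-LN, and 1.63 in AOC11 against 14.2 in AOC11-LN. It was thus low in the lines in which Ptgs2 was high, and higher in the lines in which Ptgs2 was low. Ptgs1, the constitutive cyclooxygenase, had 29.4, 3.92, 4.00 and 4.28 FPKM, high in AOC3 alone. The list of 15 genes kept 9, with medians of -0.08 and -0.02. The prostaglandin E receptor genes Ptger2 and Ptger3 were listed at 0 in every line.

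Other genes of the group act at the cell surface and in the cytoskeleton or in growth control. Podxl, a sialomucin that reduces adhesion, had 13.5 FPKM in AOC3 against 3.82 in AOC3-LN, and 0.165 in AOC11 against 3.34 in AOC11-LN. Itga2, a subunit of a collagen receptor, had 6.48, 2.32, 2.38 and 6.67 FPKM. Adgrg1, an adhesion G protein-coupled receptor, had 4.96, 0.289, 5.42 and 21.02 FPKM. Each of these was lower in AOC3-LN and higher in AOC11-LN than in its primary line, yet the primary lines were alike only for Adgrg1. Igfbp6, which binds IGF2, had 3.44, 0.295, 0.0956 and 4.95 FPKM. Txnip, an inhibitor of thioredoxin that responds to glucose, had 21.6, 5.16, 11.95 and 61.95 FPKM. Dlx3, a homeodomain factor of epidermal differentiation, had 6.54, 0.993, 1.04 and 5.03 FPKM. In these 3 genes AOC3 and AOC11-LN were the higher lines.

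The order of the lines in the group follows in part from the rule, which favors a high AOC3 and a low AOC11. Of the 87 genes, 66 were higher in AOC3 than in AOC11, 85 were higher in AOC11-LN than in AOC3-LN, and 64 did both. The median level was 5.98 FPKM in AOC3 against 1.04 in AOC3-LN, and 2.92 in AOC11 against 9.97 in AOC11-LN. Over all 11360 genes, the medians were 13.6, 12.7, 14.2 and 13.98 FPKM. The interferon-stimulated genes Isg15, Ifitm3, Gbp2 and Xaf1 did not exchange order, since AOC11 was already slightly to clearly above AOC3. Just inside the threshold was Dyrk1b, at -1.01 and 2.42, and just outside was Dhrs3, a retinal reductase, at -0.997 and 3.41. After quantile normalization 68 of the 87 genes were still in the pattern.

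Some of the genes are neighbors in the genome. Tcirg1, Aldh3b1, Unc93b1 and Acy3 follow one another on chromosome 19, with gaps of at most 37230 bases, and all 4 were lower in AOC3-LN and higher in AOC11-LN. Unc93b1 (ENSMUSG00000036908.17) lies at chr19:3935186-3949340 of mm10. Cx3cl1, Ccdc102a and Adgrg1 lie together on chromosome 8, and Ifi204, Ifi211 and Ifi205 on chromosome 1. Chromosome 6 held 10 of the 87 genes, 1.90% of its 526 genes, chromosome 19 held 7 (1.71% of 409), and chromosome 12 held 0 of 409, against 0.766% of all 11360 genes. These chromosomes were picked for their high or low shares, which were not tested. The median difference of all genes on chromosome 19 was 0.04 in the AOC3 pair and 0.39 in the AOC11 pair. Whether copy number differs between the lines was not tested.

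Promoter sequences of RefSeq, 250 bases before to 50 after the start of a gene in the mouse assembly GRCm38.p6, were available for 8946 of the 11360 genes. In the 4 patterns they covered 6 of 8 genes higher in both, 17 of 24 lower in both, 10 of 14 higher in AOC3-LN and lower in AOC11-LN, and 71 of 87 in the reverse pattern. The core of the interferon-stimulated response element, GAAANNGAA on either strand, was found in 11 of the 71 promoters (15.5%), against 6.79% of all 8946 promoters. It was in 26 of 42 promoters of the interferon-stimulated list (61.9%), in 1 of the 10 of genes higher in AOC3-LN and lower in AOC11-LN (Csf2), in 0 of the 17 of genes lower in both and in 0 of the 6 of genes higher in both. The AP-1 motif TGANTCA stood in 10 of the 71 promoters (14.1%), in 2 of 10 in the reverse pattern, in 2 of 17 of the genes lower in both and in 1 of 6 of the genes higher in both, against 4.57% of all. The NF-kB motif GGGNNTTCC was in 4 of 71, 1 of 10, 2 of 17 and 0 of 6 promoters in the same order, against 7.59% of all. The cyclic AMP response element TGACGTCA was in 0 of 71, 1 of 10, 0 of 17 and 0 of 6, against 3.42% of all, and the E-box CACGTG in 4, 2, 2 and 0, against 10.6%. A match is a description of the letters in this window, not a binding site and not a cause.

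The promoters of Isg15, Ifitm3 and Gbp2 are printed as examples of the interferon-stimulated genes with opposite shifts, chosen because they hold a match. Oasl2 and Xaf1, with the same opposite shift, hold 0 matches in this window. The sequences are shown with the matches to GAAANNGAA, or its reverse complement, in capitals. Isg15 holds 3 matches that overlap one another, Ifitm3 holds 2 and Gbp2 holds 1, and none overlaps a match of the other motifs. The windows are chr4:156200769-156201068 on the minus strand for Isg15, chr7:141010695-141010994 on the minus strand for Ifitm3 and chr3:142620413-142620712 on the plus strand for Gbp2.
Isg15: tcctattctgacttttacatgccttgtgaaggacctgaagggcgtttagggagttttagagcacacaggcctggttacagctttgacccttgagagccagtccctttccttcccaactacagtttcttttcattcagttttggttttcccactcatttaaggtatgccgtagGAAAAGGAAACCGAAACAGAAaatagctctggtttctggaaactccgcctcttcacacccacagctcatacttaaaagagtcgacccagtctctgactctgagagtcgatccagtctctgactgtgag
Ifitm3: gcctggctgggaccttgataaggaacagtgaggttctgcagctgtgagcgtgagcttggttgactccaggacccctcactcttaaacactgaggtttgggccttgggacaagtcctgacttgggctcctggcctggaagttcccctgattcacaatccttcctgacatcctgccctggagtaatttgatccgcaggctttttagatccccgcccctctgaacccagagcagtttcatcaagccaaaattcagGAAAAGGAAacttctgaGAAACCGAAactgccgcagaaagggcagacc
Gbp2: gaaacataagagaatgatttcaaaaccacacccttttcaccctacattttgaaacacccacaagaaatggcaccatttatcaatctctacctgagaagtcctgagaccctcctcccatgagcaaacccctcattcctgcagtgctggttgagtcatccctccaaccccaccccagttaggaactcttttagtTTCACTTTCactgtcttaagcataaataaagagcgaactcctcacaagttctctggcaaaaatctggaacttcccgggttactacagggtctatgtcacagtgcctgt

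The promoters of Ccl20, lower in both lymph node lines, and Dusp1, higher in AOC3-LN and lower in AOC11-LN, are printed as examples, chosen because they hold a match, which most promoters of their patterns do not. The capitals mark the match to GGGNNTTCC, here on the reverse strand, in Ccl20 (chr1:83116516-83116815, plus strand) and to TGACGTCA in Dusp1 (chr17:26508423-26508722, minus strand). Neither match overlaps a match of another motif.
Ccl20: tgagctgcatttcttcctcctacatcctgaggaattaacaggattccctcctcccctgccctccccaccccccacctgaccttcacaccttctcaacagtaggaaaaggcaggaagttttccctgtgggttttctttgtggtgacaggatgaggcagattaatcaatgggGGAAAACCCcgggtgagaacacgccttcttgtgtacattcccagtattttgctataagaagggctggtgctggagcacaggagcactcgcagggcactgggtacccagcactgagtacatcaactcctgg
Dusp1: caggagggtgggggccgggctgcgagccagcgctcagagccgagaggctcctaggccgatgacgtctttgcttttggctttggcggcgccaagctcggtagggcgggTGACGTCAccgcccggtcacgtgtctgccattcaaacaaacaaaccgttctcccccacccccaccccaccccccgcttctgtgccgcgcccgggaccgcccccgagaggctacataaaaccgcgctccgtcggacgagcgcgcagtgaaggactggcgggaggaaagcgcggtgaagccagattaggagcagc

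**Figure D3:**
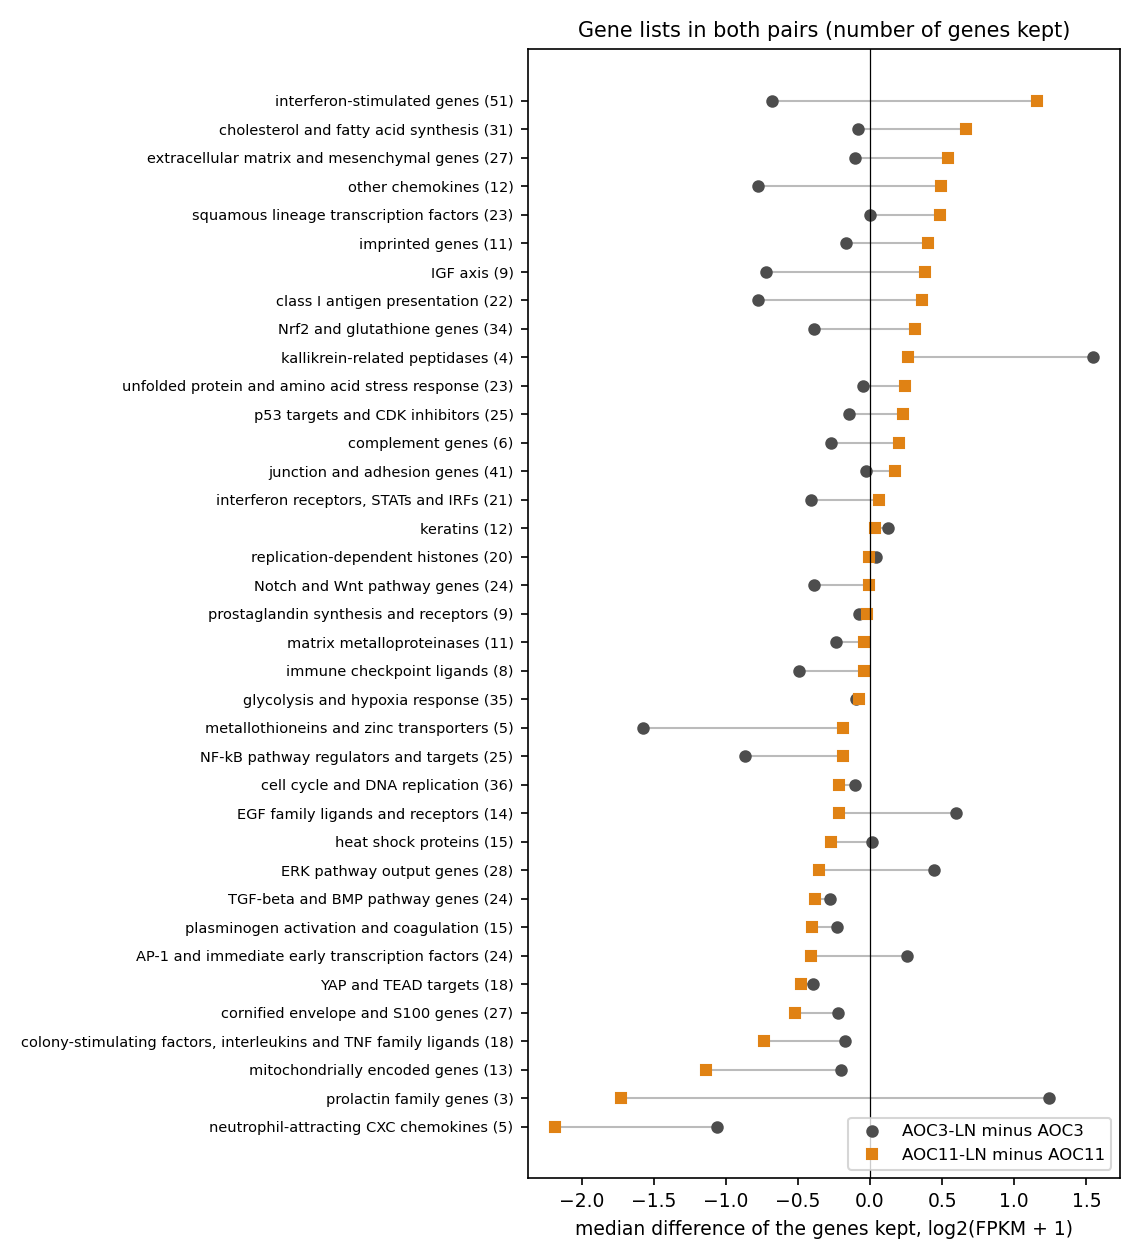
Median difference in log2(FPKM + 1) of the genes that passed the filter in 37 gene lists, with circles for AOC3-LN minus AOC3 and squares for AOC11-LN minus AOC11; the number of genes is in parentheses. Interferon-stimulated genes lie at -0.68 and 1.16, neutrophil-attracting CXC chemokines at -1.06 and -2.18.

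Several lists differed in 1 pair and hardly in the other. Genes of cholesterol and fatty acid synthesis had medians of -0.08 in the AOC3 pair and 0.67 in the AOC11 pair over 31 genes. In the AOC3 pair 0 were past the threshold, against 1.06% higher and 3.45% lower among all genes. In the AOC11 pair 8 were higher, against 4.75%. Fads1, a fatty acid desaturase, had 16.3 FPKM in AOC3 against 14.02 in AOC3-LN, and 4.77 in AOC11 against 36.3 in AOC11-LN. Scd1, which makes monounsaturated fatty acids, had 60.2, 65.5, 24.9 and 99.9 FPKM. For both genes AOC11 was the low line and AOC11-LN the high line. The 13 mitochondrially encoded genes had medians of -0.20 and -1.14 (-0.03 and -1.20 after quantile normalization). Of these, 8 were lower past the threshold in AOC11-LN and 0 in AOC3-LN, against 1.84% and 3.45% of all genes. Their summed level was 32330 FPKM in AOC3 against 28590 in AOC3-LN, and 27840 in AOC11 against 13000 in AOC11-LN. AOC11-LN was the low line, and the part of this difference in the other differences of the AOC11 pair was not tested.

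Cell cycle and DNA replication genes were nearly level, with medians of -0.10 and -0.21 over 36 genes. Past the threshold, 0 were higher and 1 lower in AOC3-LN, against 1.06% and 3.45% of all genes. In AOC11-LN 0 were higher and 2 lower, against 4.75% and 1.84%. Mki67, a marker of dividing cells, had 43.6 FPKM in AOC3 against 39.5 in AOC3-LN, and 49.9 in AOC11 against 35.8 in AOC11-LN. Each lymph node line was slightly below its primary line. Extracellular matrix and mesenchymal genes had medians of -0.10 and 0.54 over 27 genes, of which 3 reached 1 FPKM in AOC11-LN alone. In the AOC11 pair the median was 0.30 after quantile normalization and 0.21 among the 17 genes with a mean of 5 FPKM or more. On that list Lox was lower in both, and Col16a1, a collagen, was lower in AOC3-LN and higher in AOC11-LN (4.46, 0.617, 0.829 and 3.59 FPKM). Junction and adhesion genes had medians of -0.03 and 0.17 over 41 genes, and the sign in the AOC3 pair turned to 0.01 after quantile normalization and to 0.03 after the median difference of each pair was subtracted. In the AOC11 pair it turned to -0.05 among the 33 genes with a mean of 5 FPKM or more. Cldn3, a tight junction protein, had 197 FPKM in AOC3 against 242 in AOC3-LN, and 0.055 in AOC11 against 186 in AOC11-LN, so that AOC11 alone was without it.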

How the data were processed

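RNA of the 4 lines, AOC3, AOC3-LN, AOC11 and AOC11-LN, was sequenced with 1 library per line. The authors trimmed reads with Trim Galore, mapped them to mm10 with TopHat2, estimated abundances against GENCODE M21 by Cufflinks at default settings, and deposited FPKM values. The study's methods name log transformation and quantile normalization, but the deposited values carry neither. The table has 34721 entries for 34685 identifiers, and the entries of the 29 identifiers with more than 1 were summed. GENCODE M21 supplied each gene's type and the lengths of its transcripts. Of 19557 protein-coding genes, 11373 reached 1 FPKM in any line, and 13 of these with transcripts under 200 bases were dropped. A pseudocount of 1 was added before log2 transformation. Differences within a pair have no p-value. limma 3.58.1 in R 4.3.3 (lmFit, eBayes with trend, replicate block by pair, Benjamini-Hochberg over all genes) tested a shift shared by both pairs, with 1 residual degree of freedom per gene besides the spread pooled over genes. Both steps were tested on simulated data. Alternatives were quantile normalization, subtraction of each pair's median, a pseudocount of 0.1, filters of 5 FPKM, no minimum or 400 bases, genes of every type, fold thresholds of 1.5 and 4, and, for limma, no block and each line left out.

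Named genes are, in each pattern, the 12 with the largest smaller difference of the pairs that hold the pattern after quantile normalization, list members past the threshold in both pairs or with the 3 largest differences, the genes nearest to the threshold, and those with the lowest limma p. Others are examples chosen after their values were seen. The members and the 44 gene lists were chosen with earlier results of these data known. Promoters were read from RefSeq sequences of GRCm38.p6, using the start nearest to the 5′ end of the gene in GENCODE M21, and searched on both strands. Figures were drawn with matplotlib 3.10.9 in Python 3.11.15. Overlapping and closely related genes are less certain.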

Additional observations from a re-analysis of the deposited data

Results flagged for a closer look

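The pairs moved in opposite directions in several results, and in none of them was the difference between the pairs tested, since each combination of pair and site is 1 library. The 14 genes higher in AOC3-LN and lower in AOC11-LN include Ptgs2, with log2 differences of 3.20 and -3.16. The 87 genes lower in AOC3-LN and higher in AOC11-LN include Unc93b1, with differences of -2.90 and 2.22. Interferon-stimulated genes had medians of -0.68 in the AOC3 pair and 1.16 in the AOC11 pair. The prolactin family list, of which 3 genes passed the filter, had medians of 1.24 and -1.73. These rest on little, since Prl2c2 and Prl2c3 are nearly alike in sequence and Prl7c1, at 1.60 FPKM in AOC3-LN, passed the filter through that line alone.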

How the results depend on the processing

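The counts of genes past the threshold in both pairs depended most on the pseudocount and on the threshold. In the order higher in both, lower in both, higher in AOC3-LN with AOC11-LN lower, and the reverse, they were 45, 57, 33 and 286 with a pseudocount of 0.1, which by construction lets genes near 0 FPKM pass. At a 1.5-fold threshold they were 53, 101, 74 and 342, and at a 4-fold threshold 0, 0, 2 and 2, since more or fewer genes can pass. Quantile normalization, subtraction of each pair's median, a filter of 5 FPKM, no filter, transcripts of 400 bases or longer and genes of every type each left the 4 counts within 1.5 times those reported. Of the 266 differences of the 133 genes, 0 changed sign under quantile normalization, median subtraction or the smaller pseudocount, and 26, 4 and 0 came under the threshold. Of 82 list medians, 2, 2 and 1 changed sign under these settings, none of them larger than 0.048 in size.

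limma called 0 genes in the paired fit, 6 with the filter of 5 FPKM, and 0 without the replicate block, after quantile normalization, with a pseudocount of 0.1 and without a filter on low values. The filter of 5 FPKM changes both the number of genes tested and the spread pooled over genes, and the cause of the 6 calls was not tested. At an unadjusted p under 0.05 there were 77 genes without the block, 327 after quantile normalization, 362 with the smaller pseudocount and 390 without the filter. The fits with each line left out in turn had no replicate block and left 1 line at 1 of the sites. They assumed that this line varied like the lines of the other site, so they cannot check the paired fit. Each line is 1 library and each pair 1 mouse, so no difference within a pair can be set against a spread between replicates. Genes with few fragments, such as those under 1 FPKM in a lymph node line, have the least certain differences.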

Other observations

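Some genes were past the threshold in 1 pair and far from it in the other. Nkd2, an antagonist of Wnt signaling, had 0.529 FPKM in AOC3 against 11.9 in AOC3-LN, and 1.63 in AOC11 against 1.62 in AOC11-LN, high in AOC3-LN alone. The Notch and Wnt list had medians of -0.39 in the AOC3 pair and -0.01 in the AOC11 pair over 24 genes. Noggin, the BMP antagonist encoded by Nog, had 3.99, 4.08, 9.21 and 0.862 FPKM in the same order, and follistatin, the activin antagonist encoded by Fst, had 3.54, 3.91, 14.5 and 2.84 FPKM. Both were level in the AOC3 pair and lower in AOC11-LN than in AOC11, with log2 differences of -2.46 and -2.01 in the AOC11 pair. The BMP and TGF-beta list had medians of -0.28 and -0.38 over 24 genes.

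The homeobox gene Hoxa7 was listed at 0 in both lines of the AOC3 pair and had 0.0652 FPKM in AOC11 and 4.44 in AOC11-LN, above 1 FPKM in that line alone. Snrpn, an imprinted gene, was listed at 0 in both lines of the AOC3 pair and had 3.06 FPKM in AOC11 and 21.1 in AOC11-LN.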
